A study of Mus musculus with 56 samples.

Results

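The corpus epididymidis and the cauda epididymidis, the middle and the last segment of the duct in which sperm leaving the testis mature and are stored, were compared in 3-month-old C57BL/6 mice by RNA-seq of whole tissue. The comparison used 8 libraries, 4 of corpus and 4 of cauda, out of 56 in the series, and each library was placed by the region and age in its label. The series holds 4 libraries from each of 7 regions of the male tract, from testis to vas deferens, in C57BL/6 mice of 3 and of 21 months, with no treatment named in the labels. Per the study's methods, the regions were dissected from both sides of 4 mice of each age after removal of fat and connective tissue. The 8 corpus and cauda libraries of 21-month-old C57BL/6 mice served here as a second set for the same comparison. Among the 21 pairs of regions at 3 months, corpus and cauda had the highest mean correlation across genes of log2(CPM + 1), where CPM are counts scaled to the library total, and initial segment and caput came next.

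The epididymal epithelium is divided into segments that express different sets of secreted proteins, and sperm meet these in sequence as they pass along the duct. Principal cells secrete and absorb, clear cells acidify the lumen, and basal cells lie against the basement membrane. The cauda stores sperm and has a thicker coat of smooth muscle, which contracts at ejaculation. Beta-defensins are small cationic peptides that coat sperm and act against microbes, and protease inhibitors with WAP, Kunitz or Kazal domains are a second large class of epididymal secretions.

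The 8 libraries held between 15553672 and 18908950 counts, with between 25721 and 27537 genes above 0, and values are given as CPM scaled by the trimmed mean of M values (TMM). The principal cell genes on the marker list summed to between 21000 and 28500 CPM in corpus and between 16900 and 27800 CPM in cauda, so epididymal epithelium was present in every library. As the sums overlapped, they do not tell corpus from cauda. Cauda replicate 3 stood apart from the other cauda libraries. Its correlations with them in log2(CPM + 1) across genes were between 0.971 and 0.972, whereas other pairs within the cauda reached 0.996 and corpus with cauda libraries lay between 0.935 and 0.964, and 85 genes of at least 10 CPM were there at 10 times or more the level of the other 3 cauda libraries, 24 of which were called different between the segments. Corpus replicate 4 had the highest share of mitochondrial counts (10.4%, with a lowest corpus value of 3.33%) and of the ribosomal RNA-like transcript Gm42418 (26.3%, lowest 10.4%). Corpus replicate 2 had the highest level among corpus libraries for 24 of 30 genes that were over 32-fold higher in cauda, at a median of 2.66% of the cauda level, against medians between 0.534% and 1% in the other 3. Of 26 genes over 32-fold higher in corpus, 11 had their highest cauda level in cauda replicate 1. The median there was 1.5% of the corpus level, against 0.727% to 1% in the other cauda libraries.

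At 3 months, 3479 of 25616 genes tested differed between corpus and cauda by at least 2-fold with an adjusted p under 0.05 (13.6%; edgeR quasi-likelihood test, Benjamini-Hochberg). Of these, 1652 genes were higher in corpus (6.45% of those tested) and 1827 were higher in cauda (7.13%). These shares are the background for each list count at 3 months below, and no list was tested against them. In whole tissue, more cells of a type and more RNA per cell cannot be told apart. Protein-coding genes made up 1001 of the former and 1324 of the latter. At 4-fold or more, 813 genes were higher in corpus and 773 in cauda, and at 16-fold or more, 262 and 229. The 4 libraries of each segment did not overlap for 1554 of the genes higher in corpus and 1707 of those higher in cauda, where 15.4% and 14.8% of all genes tested were without overlap in these directions (30.2% in either). Without cauda replicate 3 the counts were 1747 and 1717, and without corpus replicate 2 they were 1522 and 1582. The split depended on scaling: with library size in place of TMM the all-gene median of the log2 fold change moved from -0.044 to -0.23, and 1321 genes were higher in corpus and 2667 in cauda.

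**Figure D1:**
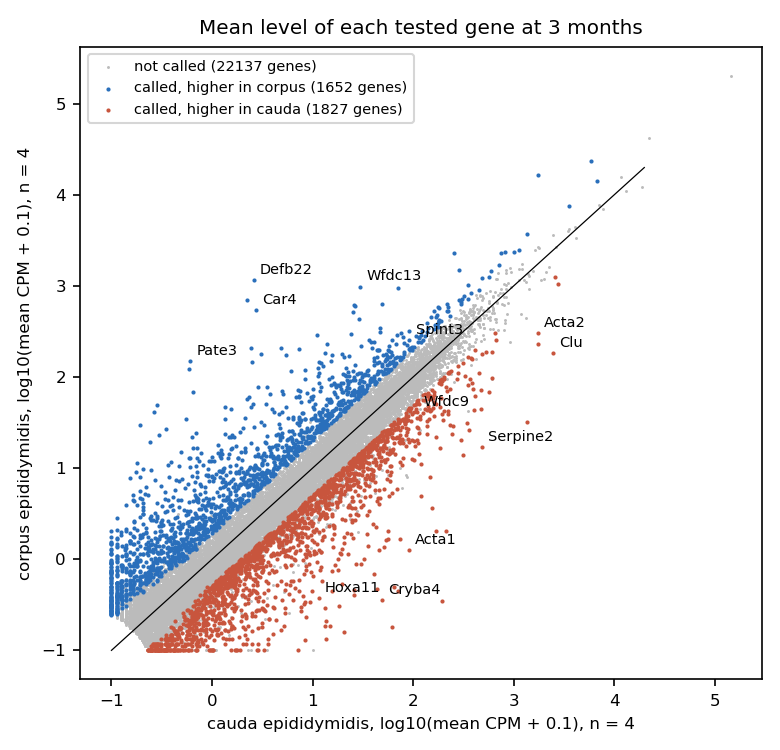
Mean level of each tested gene in the 4 cauda libraries (horizontal axis) and the 4 corpus libraries (vertical axis) at 3 months, as log10(mean CPM + 0.1), with the line of equal levels. Genes called higher in corpus (1652) lie above the line and genes called higher in cauda (1827) below it, and Defb22 and Serpine2 are among those farthest from it at high levels.

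The sharpest corpus genes included beta-defensins, a carbonic anhydrase and a diacylglycerol kinase. Among protein-coding genes of at least 10 CPM without overlap between the segments, the 8 with the highest fold in favour of corpus were Defb22, BC048679, Pate3, Dgkk, Defb23, Myo7b, Car4 and Ly6l, at between 126-fold and 461-fold. Defb22, a beta-defensin whose glycosylated protein coats sperm, had 1276, 1270, 862 and 1214 CPM in the corpus libraries and 2.65, 1.91, 3.08 and 2.32 CPM in the cauda libraries. No cauda library came near any corpus library, and corpus replicate 3 was the lowest of the corpus. The fitted log2 fold change, corpus minus cauda, was 8.85 ± 0.22 (SE, adjusted p = 5.26e-09). Car4, which encodes a membrane-bound carbonic anhydrase that interconverts carbon dioxide and bicarbonate, stood at 543 ± 76.3 CPM in corpus and 2.65 ± 0.823 CPM in cauda (SD, n = 4 each; log2 fold change 7.67 ± 0.24, adjusted p = 1.26e-08). BC048679, a gene named only by its clone, stood at 695 ± 111 and 2.11 ± 0.786 CPM in the same order (adjusted p = 1.26e-08). Dgkk, a diacylglycerol kinase, was lower in level but as steady, with 52.6, 44, 47.5 and 54.7 CPM in corpus and between 0.106 and 0.218 CPM in cauda.

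**Figure D2:**
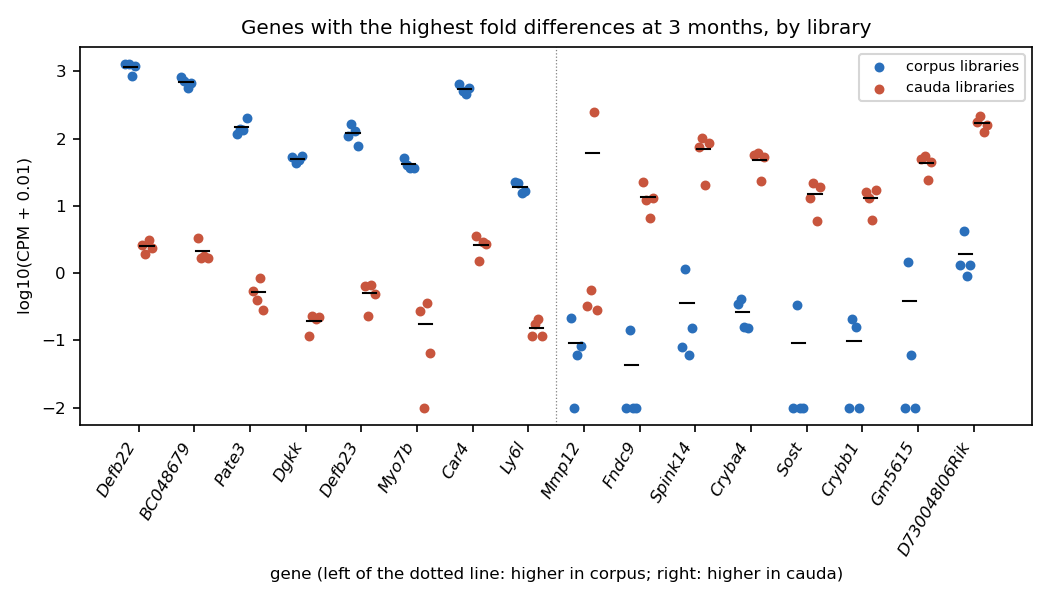
Level of the 8 protein-coding genes with the highest fold in each direction, in each of the 8 libraries, as log10(CPM + 0.01). Points are libraries and black lines their means in each segment. Corpus and cauda points do not overlap for any of the 16 genes, and for Mmp12 the cauda mean rests on replicate 3 at 245 CPM.

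Several of these genes lie beside each other. On chromosome 2, 6 of 7 tested protein-coding genes between positions 152415587 and 152540098 (GRCm38) were higher in corpus, namely 6820408C15Rik, Defb23, Defb20, Defb22, Defb26 and Defb29, all of them beta-defensin genes apart from the first. Defb23 (chr2:152459055-152464620) had 111, 166, 131 and 78.6 CPM in corpus and 0.636, 0.218, 0.646 and 0.485 CPM in cauda. Defb26 (chr2:152507798-152511692) had 115, 161, 106 and 206 CPM in corpus and 3.44, 2.73, 1.24 and 2.27 CPM in cauda. Both were separated from cauda in every library, and their corpus levels were not in the same order, with replicate 4 the lowest for Defb23 and the highest for Defb26. Defb29 stood at 4.36 ± 2.86 and 0.268 ± 0.222 CPM, and Defb20 at 11.3 ± 3.56 and 3.06 ± 0.307 CPM, in corpus and cauda. The promoter sequences of the 3 most strongly divided members are shown because these neighbours shared a direction. They are the 250 bases before the start annotated by RefSeq on GRCm38.p6, read 5′ to 3′ on the strand of the gene, and capitals mark 2 motifs on either strand, AGAACA (a half-site of steroid receptors) and CAATAAA (a sequence that posterior Hox proteins prefer), as well as the CArG box, which is bound by serum response factor.
Defb22 (chr2:152490139-152490388, minus strand): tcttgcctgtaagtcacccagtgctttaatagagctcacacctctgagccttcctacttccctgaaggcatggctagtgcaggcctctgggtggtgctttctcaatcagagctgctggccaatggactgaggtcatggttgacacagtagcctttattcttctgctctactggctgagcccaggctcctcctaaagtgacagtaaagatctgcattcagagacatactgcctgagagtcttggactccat
Defb23 (chr2:152464621-152464870, minus strand): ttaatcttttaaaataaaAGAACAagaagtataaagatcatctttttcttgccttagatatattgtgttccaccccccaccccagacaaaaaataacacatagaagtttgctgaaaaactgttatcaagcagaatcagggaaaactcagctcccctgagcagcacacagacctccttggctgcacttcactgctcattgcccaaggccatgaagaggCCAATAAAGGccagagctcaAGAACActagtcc
Defb26 (chr2:152511737-152511986, minus strand): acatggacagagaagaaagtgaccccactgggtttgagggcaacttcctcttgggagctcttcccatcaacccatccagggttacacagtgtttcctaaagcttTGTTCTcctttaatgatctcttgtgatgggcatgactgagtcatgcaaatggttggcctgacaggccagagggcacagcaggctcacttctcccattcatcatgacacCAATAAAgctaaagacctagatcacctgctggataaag
Defb22 had no match to the 3 motifs in this window. Defb23 held 2 matches to AGAACA and 1 to CAATAAA, the latter inside a match to the CArG box, and Defb26 held 1 match to each of the first 2. Over all 32851 promoter windows of the same length, 16.1% held AGAACA, 4.2% held CAATAAA and 8.59% held a CArG box, here taken as CC, 6 bases of which at least 5 were A or T, and GG. Of the 36 beta-defensin genes tested, 21 had a window, of which 10 held AGAACA and 3 held CAATAAA. These are counts of genes with a match in any window, an unlike measure to the shares of windows.

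Across the beta-defensin family, 11 of 36 tested members were higher in corpus and 5 were higher in cauda, and the median log2 fold change of the list was 0.67, against -0.044 for all genes. The summed level was between 2950 and 3720 CPM in the corpus libraries and between 969 and 1590 CPM in the cauda libraries. Outside chromosome 2, Defb37 (145 ± 37.8 against 11.4 ± 1.21 CPM), Defb38 (219 ± 78.3 against 30.5 ± 3.97) and Defb39 (174 ± 38.3 against 15.6 ± 2.26) were also higher in corpus. The most abundant of the 5 in the opposite direction was Defb2, at 56.9 ± 11.9 CPM in corpus and 146 ± 33.2 CPM in cauda (adjusted p = 3.37e-04), and Defb9 and Defb10, also on chromosome 8, were higher in cauda as well. Defb2 was among the 5 cauda-higher genes with the highest level per kilobase of exon, at 477 CPM per kb. Defb28 was abundant in both segments without a called difference, at 860 ± 99.9 and 654 ± 176 CPM (adjusted p = 0.152). How the counting treated reads shared by near-identical family members is not given in the sources used here, so levels of close paralogs are uncertain.

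The WAP and Kunitz inhibitors showed both directions along the same stretch of chromosome 2. Of 24 tested, 10 were higher in corpus and 4 were higher in cauda (median log2 fold change 0.08). Wfdc13 (chr2:164685107-164687706) had 1045, 1049, 883 and 947 CPM in corpus and 34.3, 19.4, 33.5 and 32.1 CPM in cauda (log2 fold change 5.04 ± 0.20, adjusted p = 4.29e-08). Spint3, a Kunitz inhibitor gene, was 2.79-fold higher in corpus, at 256 ± 23.1 CPM against 91.6 ± 24.5 CPM (adjusted p = 1.42e-04). Eppin, which encodes a sperm-coating inhibitor with WAP and Kunitz domains, stood at 255 ± 35.4 and 36.4 ± 6.38 CPM, and Wfdc16 at 1251 ± 112 and 569 ± 107 CPM. Wfdc9 (chr2:164649631-164656583) went the other way, with 47.5, 41.8, 36.4 and 39.2 CPM in corpus and 118, 126, 82.7 and 110.3 CPM in cauda, without overlap (log2 fold change -1.41 ± 0.14, adjusted p = 2.47e-05). Wfdc6b and Wfdc3 were likewise higher in cauda. Spint4 and Spint5 were both higher in corpus but had levels that varied among corpus libraries. Spint4 had 10.2, 74.4, 16.6 and 4.8 CPM, and without corpus replicate 2 the log2 fold change of Spint4 was 5.37 in place of 6.69.

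Other secreted inhibitors and enzymes are given by member, beside 6.45% of all genes tested that were higher in corpus and 7.13% in cauda. Among Kazal inhibitors, 2 of 10 were higher in corpus and 4 in cauda. Spink14 was at or below 0.143 CPM in 3 corpus libraries and at 1.13 CPM in corpus replicate 2, and had 74.3, 101, 20.5 and 86.4 CPM in cauda (adjusted p = 1.83e-05). Spink5, which encodes the inhibitor LEKTI of kallikrein-related proteases, stood at 43.4 ± 18.8 CPM in corpus and 406 ± 63.4 CPM in cauda. Serpins had 4 of 34 members higher in corpus and 2 in cauda. Serpine2, an inhibitor of thrombin and plasminogen activators, had 14.6, 26.9, 13.1 and 13.3 CPM in corpus and 557, 572, 289 and 521 CPM in cauda (log2 fold change -4.84 ± 0.31, adjusted p = 1.07e-06), and Serpina1f, the most abundant per kilobase of the genes higher in cauda, stood at 1243 ± 71.7 and 2605 ± 579 CPM (without cauda replicate 4 its log2 fold change was -0.98, under the limit). In the RNase A family, 3 of 9 were higher in corpus, with Rnase9 at 604 ± 102 CPM in corpus and 26.5 ± 5.4 CPM in cauda (adjusted p = 6.33e-08), and 1, Rnase10, was called higher in cauda. Rnase10 had 1.24, 0, 0.0498 and 0 CPM in corpus and 3.5, 2.95, 1.14 and 3.18 CPM in cauda, so the segments overlapped, and it was not called without corpus replicate 2, 3 or 4 (adjusted p = 0.0579, 0.0722 and 0.0561) or with DESeq2 (0.109). Crisp4, of the cysteine-rich secretory proteins, was higher in corpus at 95.4 ± 24.4 against 8.31 ± 2.04 CPM (1 of 4 tested), whereas Crisp1 was abundant in both at 11010 ± 2478 and 13000 ± 2762 CPM (adjusted p = 0.48). Lcn12 was the only one of 8 lipocalins called, higher in cauda at 148 ± 26.8 against 61.7 ± 5.13 CPM. None of the 7 cystatins tested was called at an adjusted p under 0.05 and 2-fold.

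Runs of neighbouring genes with a shared direction were also found for other families, and their genes are named here after their values were seen. All 6 tested genes between positions 35560820 and 35742252 of chromosome 9 were higher in corpus, among them Pate1, Pate2, Pate3 and Pate4, which encode small secreted proteins of the Ly6/uPAR fold expressed in the male tract. Pate2 stood at 631 ± 169 CPM in corpus and 48.8 ± 9.09 CPM in cauda, and Pate1 at 342 ± 37.9 and 46.8 ± 9.13 CPM. On chromosome 3, 5 of 6 genes of the Gstm cluster were higher in corpus, including Gstm6 at 300.5 ± 24.8 against 23.8 ± 4.5 CPM and Gstm7 at 1467 ± 174 against 598 ± 86 CPM, and across the glutathione S-transferases, which conjugate glutathione to electrophiles, 6 of 22 were higher in corpus and 1, Mgst2, in cauda. Mgst2 had 0.318, 0.437, 2.83 and 0.324 CPM in cauda and 0.0687, 0.133, 0.249 and 0 CPM in corpus, and it was not called without cauda replicate 3 (adjusted p = 0.14) or without any 1 corpus library (between 0.0562 and 0.102). A run on chromosome 5 held Odam, Prr27, Csn1s2a and Csn1s2b, of the casein and enamel protein locus, all higher in corpus, with Odam at 111 ± 27.8 and 11.4 ± 3.25 CPM. In cauda the runs included 6 kallikrein genes of the Klk1b group on chromosome 7, with Klk1b27 at 25.5 ± 3.55 CPM in cauda and 0.354 ± 0.516 CPM in corpus, and 5 keratin genes on chromosome 11, with Krt32 at 8.5 ± 2.19 and 0.13 ± 0.101 CPM and Krt19 at 252 ± 76.5 and 28.8 ± 4.9 CPM. On chromosome 15, 4 genes of the Ly6 family were higher in cauda, among them Ly6a, a surface protein of stem and endothelial cells, at 415 ± 147 CPM against 62.2 ± 5.35 CPM. Among antioxidant enzymes, 2 of 21 were higher in corpus and 2 in cauda, and Gpx3, the most abundant, stood at 7784 ± 934 and 7076 ± 1938 CPM without a called difference.

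Under the same rule, the 8 protein-coding genes with the highest fold in favour of cauda were Mmp12, Fndc9, Spink14, Cryba4, Sost, Crybb1, Gm5615 and D730048I06Rik. Mmp12, a macrophage metalloproteinase, had 0.318, 0.546, 245 and 0.27 CPM in cauda, so that its mean rested on replicate 3. Without that library its log2 fold change was -2.14 (adjusted p = 0.0497) in place of -9.49, and without any 1 corpus library its adjusted p was between 0.0703 and 0.0765. Cryba4 and Crybb1, a pair of neighbouring genes for lens crystallins, were each near 0 in corpus. Cryba4 had 0.344, 0.398, 0.149 and 0.143 CPM in corpus and 57.6, 61.2, 23.6 and 53 CPM in cauda (log2 fold change -7.55 ± 0.41, adjusted p = 3.59e-07). Crybb1 had 0, 0.199, 0.149 and 0 CPM in corpus and 15.9, 13.2, 6.12 and 17.1 CPM in cauda (adjusted p = 5.67e-06). Cauda replicate 3 was the lowest cauda library for both. Sost, a secreted inhibitor of Wnt signalling known from bone, had 12.9, 22, 5.92 and 19 CPM in cauda and was listed at 0 in 3 of 4 corpus libraries (adjusted p = 2.56e-05). Fndc9, a membrane protein with a fibronectin type III domain, had 2 counts in all corpus libraries and a ratio of 427 (exact interval of the ratio of counts, 118 to 3534, counting error only). All corpus counts of Fndc9 and Sost, and all but 1 of the 23 of Gm5615, were in corpus replicate 2. The starts of the crystallin genes lie in opposite directions on chromosome 5, and their windows are shown for that reason, with the same marking.
Cryba4 (chr5:112252519-112252768, minus strand): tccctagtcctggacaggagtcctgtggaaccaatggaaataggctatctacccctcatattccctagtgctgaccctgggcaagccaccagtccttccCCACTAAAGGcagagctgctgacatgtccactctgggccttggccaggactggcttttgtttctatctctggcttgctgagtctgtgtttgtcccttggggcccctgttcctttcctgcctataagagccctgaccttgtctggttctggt
Crybb1 (chr5:112255570-112255819, plus strand): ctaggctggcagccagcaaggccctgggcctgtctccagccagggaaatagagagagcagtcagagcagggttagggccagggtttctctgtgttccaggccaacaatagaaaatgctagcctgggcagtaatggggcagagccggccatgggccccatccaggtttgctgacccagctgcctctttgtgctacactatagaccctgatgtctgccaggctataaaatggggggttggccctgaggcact
The Cryba4 window held 1 match to the CArG box and Crybb1 none, and neither held the other motifs.

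Among abundant genes higher in cauda, Clu, the secreted chaperone clusterin, had 168, 232, 192 and 142 CPM in corpus and 3450, 3317, 982 and 2143 CPM in cauda (log2 fold change -3.75 ± 0.36, adjusted p = 2.17e-05). Its cauda level was lowest in replicate 3 but still above all corpus libraries. The most abundant genes higher in corpus, per kilobase of exon, were mt-Co1, Cuzd1, mt-Cytb, Defb22 and mt-Nd1. The mitochondrially encoded genes summed to between 3.33% and 10.4% of corpus counts and between 1.74% and 2.23% of cauda counts, and without corpus replicate 4 the log2 fold changes of mt-Co1 and mt-Nd1 were 0.93 each, under the 2-fold limit. With library size scaling mt-Co1 and Cuzd1 were under it too, at 0.85 and 0.86. Cuzd1, a zona pellucida-like domain protein of secretory epithelia, had 7704, 7381, 6724 and 8035 CPM in corpus and 4115, 3794, 2501 and 3876 CPM in cauda, and without cauda replicate 3 its log2 fold change was 0.94.

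Smooth muscle genes had the highest share of called members among the lists. Of 19 tested, 18 were higher in cauda and none in corpus, and the list's median log2 fold change was -2.27. The summed level was between 1020 and 1480 CPM in corpus and between 6120 and 8640 CPM in cauda. Acta2, smooth muscle actin, had 376, 359.7, 246 and 238 CPM in corpus and 1729, 2005, 1500 and 1695 CPM in cauda (log2 fold change -2.51 ± 0.18, adjusted p = 2.57e-06). Actg2, the enteric actin, was at 20.4 ± 4.59 and 299.7 ± 52.4 CPM, Cnn1, calponin, at 31 ± 9.41 and 342 ± 40.2 CPM, and Des, desmin, at 44.8 ± 12.9 and 474 ± 92.1 CPM. Myocd, the coactivator of serum response factor that drives smooth muscle genes, was also higher in cauda, at 35.1 ± 4.66 against 8.4 ± 1.86 CPM. The count was also 18 without cauda replicate 3, without corpus replicate 2 and with library size scaling. The Acta2 window is shown because the CArG box is the known element of smooth muscle promoters and the genes of this list moved together.
Acta2 (chr19:34255374-34255623, minus strand): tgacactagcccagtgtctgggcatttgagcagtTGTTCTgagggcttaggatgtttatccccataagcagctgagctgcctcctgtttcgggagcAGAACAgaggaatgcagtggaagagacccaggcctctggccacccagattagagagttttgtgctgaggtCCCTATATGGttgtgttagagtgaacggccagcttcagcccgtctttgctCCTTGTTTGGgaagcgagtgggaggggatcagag
It held 2 matches to the CArG box and 2 to AGAACA. Of the 15 smooth muscle genes tested that had a window, 5 held a CArG box (Acta2, Hspb6, Myl9, Pcp4 and Synm), beside 8.59% of all windows. A gene was counted when any of its windows held a match, so the share of genes and the share of windows are unlike measures.

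Skeletal muscle genes were also higher in cauda, at much lower levels, in 9 of 15 (12 without cauda replicate 3, 6 without corpus replicate 2 and 5 without corpus replicate 4). At 21 months 11 of them were tested, of which 4 were higher in cauda (between 3 and 5 without any 1 library) and 1 in corpus, and the median log2 fold change over those 11 was -0.56, against -4.45 over the 15 at 3 months. Acta1, skeletal actin, had 1.03, 1.19, 0.946 and 1.43 CPM in corpus and 102, 99.3, 93.3 and 69.6 CPM in cauda (log2 fold change -6.31 ± 0.18, adjusted p = 9.88e-09). Tnnc2, a fast-muscle troponin, had no counts in corpus and 3.18, 3.11, 2.34 and 2.21 CPM in cauda, at least 57.5-fold higher against a floor of 3 counts over the corpus libraries. The fast myosin Myh1 was at 32.5, 26.2, 1.54 and 1.78 CPM in the cauda libraries, high in 2 of the 4.

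**Figure D3:**
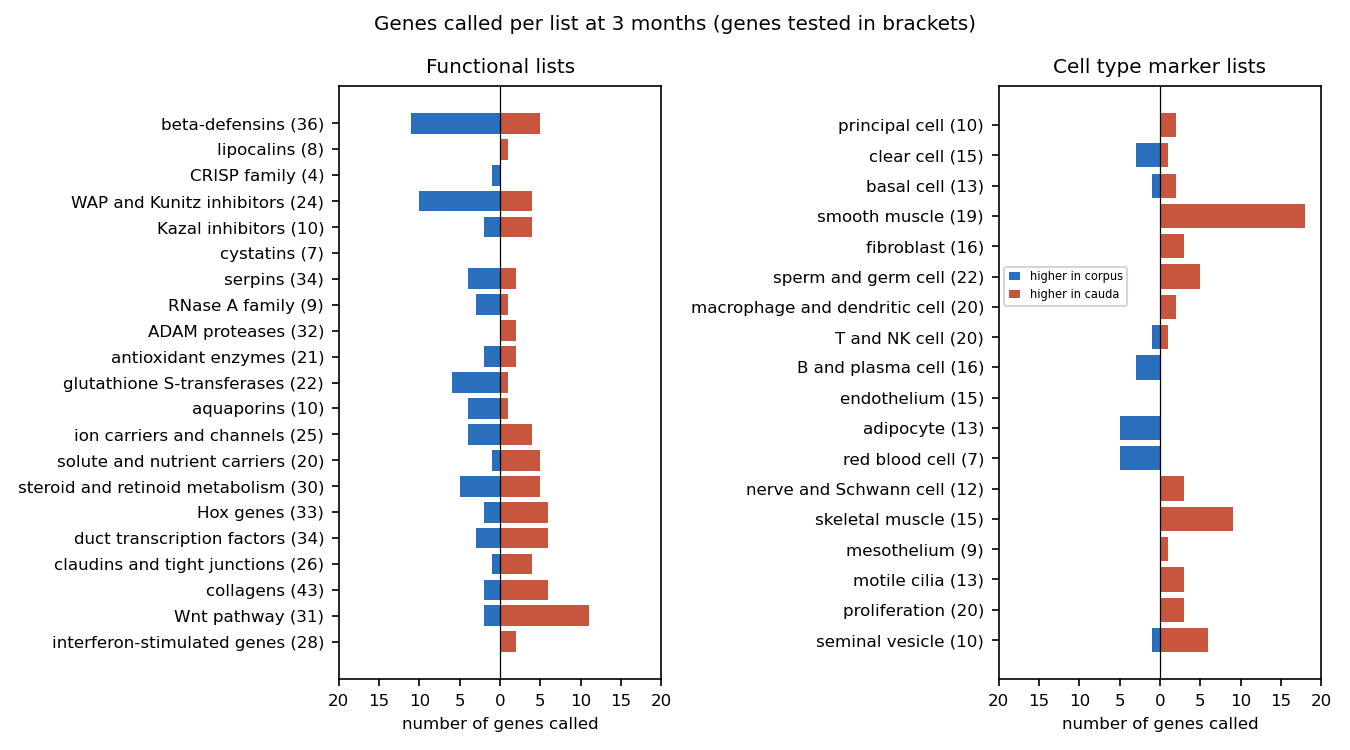
Number of genes called higher in corpus (left of 0) and higher in cauda (right of 0) at 3 months for each list, with the number tested in brackets. The longest bars are smooth muscle in cauda (18 of 19), Wnt pathway in cauda (11 of 31) and beta-defensins in corpus (11 of 36).

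Hox genes encode transcription factors whose order in their clusters matches the order of their expression along the body axis. Of 33 tested, 6 were higher in cauda (Hoxa10, Hoxa11, Hoxb9, Hoxd10, Hoxd11 and Hoxd13) and 2 in corpus (Hoxa7 and Hoxc9). Hoxa11 had 0.206, 0.464, 0.199 and 0.215 CPM in corpus and 11.4, 13, 9.74 and 11.4 CPM in cauda (log2 fold change -5.37 ± 0.26, adjusted p = 1.87e-07). Hoxd11 had 0.206, 0.0663, 0 and 0.0717 CPM in corpus and 4.5, 4.86, 4.82 and 5.99 CPM in cauda (adjusted p = 3.53e-06). Hoxa10 stood at 4.56 ± 1.53 and 44.3 ± 1.41 CPM, and Hoxd10 at 0.663 ± 0.216 and 11.7 ± 1.31 CPM. Hoxd13 had no counts in corpus and was at least 5.07-fold higher in cauda, where it reached only 0.431 CPM (adjusted p = 0.0226, and 0.0511 without cauda replicate 4). The corpus-higher differences were small, 2.11-fold for Hoxa7 and 2.03-fold for Hoxc9, and both fell under the 2-fold limit without cauda replicate 1 or 2. With library size scaling no Hox gene was called higher in corpus.

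Of 34 other transcription factors of the duct, 3 were higher in corpus and 6 in cauda. Pax8, required for development of the genital ducts, stood at 483 ± 20.9 CPM in corpus and 174 ± 32.1 CPM in cauda, and the epithelial ETS factor Ehf at 318 ± 32.4 and 122 ± 15.3 CPM. In cauda, Gata2 had 116, 139.7, 75.5 and 131 CPM, against 15.6, 19.4, 11.7 and 10.5 CPM in corpus (adjusted p = 4.26e-06), and Elf5 had 10.3, 7.32, 7.61 and 6.96 CPM against at most 0.573 CPM (adjusted p = 1.63e-05; the log2 fold change was -5.14, and -5.99 without corpus replicate 4). Meis2, a cofactor of Hox proteins, was 4.02-fold higher in cauda.

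Wnt pathway genes favoured cauda, with 11 of 31 higher there and 2 in corpus (median log2 fold change -0.82). The ligands Wnt7b (102 ± 25 against 12.2 ± 4.39 CPM) and Wnt4 (76.9 ± 20.4 against 20.4 ± 3.89 CPM) were higher in cauda. So was the R-spondin Rspo3, which potentiates Wnt signalling, at 34.8 ± 0.839 against 9.92 ± 1.22 CPM, and the secreted antagonists Sfrp2, Sfrp4, Dkk3 and Notum. Sfrp2 had 1.44, 3.05, 4.08 and 1.79 CPM in corpus and 22.3, 26.2, 23.1 and 26.3 CPM in cauda (adjusted p = 8.96e-06). Wnt2b was the reverse, at 11.3 ± 2.5 in corpus and 5.07 ± 1.27 CPM in cauda, but with library size scaling it fell just under the 2-fold limit, and the Wnt pathway counts were then 1 in corpus and 12 in cauda. Ligands and antagonists were thus both among the genes higher in cauda. Axin2, a general target of the pathway, stood at 68.7 ± 13.1 and 103 ± 17.8 CPM, under the 2-fold limit.

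Genes for steroid and retinoid handling were divided by member. The 5 of 30 higher in corpus included Srd5a1 and Srd5a2, the 5-alpha-reductases that convert testosterone to dihydrotestosterone. Srd5a1 had 45.6, 41.3, 42.4 and 46.6 CPM in corpus and 3.76, 4.31, 4.28 and 3.07 CPM in cauda (log2 fold change 3.51 ± 0.14, adjusted p = 4.29e-08). Srd5a2 stood at 41.3 ± 5.48 and 12.2 ± 0.264 CPM. The 5 higher in cauda included the retinoic acid receptors Rara (46 ± 6.84 against 9.94 ± 1.42 CPM) and Rarg (65 ± 8.64 against 18.9 ± 2.84 CPM), the binding protein Crabp2 and the retinol transporter Stra6 (8 genes were higher in cauda with library size scaling).

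Ion and nutrient carriers showed the same number of genes in each direction for ions (4 and 4 of 25) and more in cauda for nutrients (1 in corpus and 5 in cauda of 20). Slc34a2, a sodium-phosphate cotransporter, had 125, 122, 118 and 118 CPM in corpus and 9.01, 7.48, 10 and 6.58 CPM in cauda (log2 fold change 3.87 ± 0.14, adjusted p = 2.50e-08). Kcnj16, a potassium channel, and Atp1b1, the beta subunit of the sodium pump, were 25-fold and 3.78-fold higher in corpus. In cauda, the calcium-activated chloride channel Ano1 had 519, 549, 337 and 495 CPM, against 78, 77.2, 73.1 and 58.3 CPM in corpus (adjusted p = 8.09e-07). Slc9a3, the apical sodium-proton exchanger, was at 117 ± 30.9 against 37.4 ± 4.58 CPM, and Slc26a3, a chloride-bicarbonate exchanger, at 74.3 ± 6.51 against 26.4 ± 2.66 CPM. Slc2a5, the fructose carrier, was 4.96-fold higher in corpus, whereas Slc22a21 (a carnitine carrier), Slc6a6 (taurine), Slc6a8 (creatine) and Slc6a20a were among those higher in cauda, with Slc6a6 at 316 ± 74.1 against 143 ± 16.3 CPM. Of 10 aquaporins, 4 were higher in corpus and 1 in cauda, each under 5 CPM. Aqp9, the main water channel of the duct by level, was at 218 ± 5.16 and 221 ± 35.6 CPM (adjusted p = 0.909). Among claudins and other tight junction genes, 4 of 26 were higher in cauda, with Cldn4 at 52.3 ± 11.3 against 12.1 ± 2.98 CPM and Cldn8 at 162 ± 28.6 against 53.7 ± 3.58 CPM, and Cldn11 was higher in corpus.

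Epithelial cell markers varied gene by gene. Of 15 clear cell genes, 3 were higher in corpus (2 without any 1 library, with a replicate block or with library size scaling) and 1 in cauda (2 without cauda replicate 1 or 2 or with library size scaling), with Car2, a cytosolic carbonic anhydrase, at 135 ± 8.55 CPM in corpus and 26.1 ± 2.21 CPM in cauda (adjusted p = 5.77e-08). Foxi1, the defining transcription factor of these cells, was at 43.6 ± 5.32 and 42.3 ± 1.35 CPM. Of 13 basal cell genes, Itga6 was higher in corpus and Cav1 and Ngfr in cauda, while the defining Krt5 and Trp63 were not called, at 52.1 ± 13.4 and 46.1 ± 4.75 CPM for Krt5. With library size scaling Itga6 was under the 2-fold limit (log2 fold change 0.99). Of 10 principal cell genes, none was higher in corpus and 2 were higher in cauda. With a replicate block, the log2 fold change of Ngfr was -0.96 (adjusted p = 0.0167), under the 2-fold limit, and without cauda replicate 3 it was -0.65. Without corpus replicate 1 or 2 its adjusted p was 0.0541 and 0.0629. Of 13 motile cilia genes, 3 were higher in cauda (Dnah9, Dnah5 and Cfap44), and Dnah9, an axonemal dynein chain, was at 23.9 ± 8.07 against 1.81 ± 0.303 CPM.

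Sperm are present in the lumen of both segments, and 5 of 22 sperm and germ cell genes were higher in cauda and none in corpus (9 without cauda replicate 3, 1 without cauda replicate 4, and 10 with library size scaling). Akap4, a scaffold of the sperm tail, had 14.2, 21.1, 21 and 22.6 CPM in corpus and 39.1, 40.5, 38.8 and 50.4 CPM in cauda, without overlap, although its log2 fold change was -0.97 without corpus replicate 1 or cauda replicate 4. Gapdhs, the sperm glycolytic enzyme, stood at 15.8 ± 2.87 and 35.2 ± 6.56 CPM. With 28 libraries in one edgeR fit, neither was called, at an adjusted p of 0.0637 for Gapdhs and 0.0723 for Akap4. Of 32 ADAM proteases, 2 were higher in cauda (Adam8 and Adam22), beside 7.13% of all genes tested. Adam8 was at 4.24, 4.1, 92.7 and 3.45 CPM in cauda, and without cauda replicate 3 its log2 fold change was -0.58. Adam8 was also not called with a replicate block (adjusted p = 0.0637) or without any 1 corpus library (between 0.0831 and 0.0991). Of 10 genes known from the seminal vesicle, 6 were higher in cauda and 1, Pate4, in corpus. Svs1 had 129.8, 137, 64.4 and 146 CPM in cauda and 0.618, 16.9, 1.4 and 0.573 CPM in corpus, where replicate 2 was the highest. Its log2 fold change was -4.62, and -7.03 without that library.

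Stromal, immune and other markers moved with cauda replicate 3. The macrophage and dendritic cell genes summed to 4490 CPM in that library, between 771 and 916 CPM in the other cauda libraries and between 621 and 915 CPM in corpus. Of 20 such genes, 2 were called higher in cauda (among them Itgam, at a log2 fold change of -1.95 without replicate 3), 1 without that replicate, without corpus replicate 2 or without corpus replicate 4, between 6 and 7 without cauda replicate 1, 2 or 4, and 9 with library size scaling. Spp1, osteopontin, had 0.53, 0.655, 770.4 and 1.19 CPM in cauda, and Gpnmb, a glycoprotein of lipid-laden macrophages, had 464, 464, 4129 and 400.4 CPM, against at most 46 CPM in corpus, both named after their values were seen. Without replicate 3 the log2 fold changes were -1.69 for Spp1 (adjusted p = 0.0593, and between 0.0658 and 0.0727 without any 1 corpus library) and -3.79 for Gpnmb (adjusted p = 6.40e-10). Collagens had 6 of 43 members higher in cauda and 2 in corpus, against 2 and 4 without that replicate, and 2 in cauda without corpus replicate 4. Col12a1, a fibril-associated collagen, at 373, 420.3, 381 and 376 CPM in cauda and 156 ± 18.4 CPM in corpus, had a log2 fold change of -1.31 without replicate 3. In corpus, Col24a1 was at 27.4 ± 6.63 against 1.94 ± 2.6 CPM (log2 fold change 3.79, and 5.40 without cauda replicate 3). Fibroblast genes were higher in cauda in 3 of 16 (2 without the replicate), and proliferation genes in 3 of 20 (1 without it). Interferon-stimulated genes gave 2 of 28 higher in cauda (1 without it, between 5 and 7 without cauda replicate 1, 2 or 4, and 11 with library size scaling). What part the macrophage content of replicate 3 had in these counts was not tested.

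Among the remaining lists, adipocyte genes favoured corpus, in 5 of 13, with 8 without cauda replicate 3 and 2 without corpus replicate 2, corpus replicate 3, cauda replicate 2 or cauda replicate 4. Adipoq, adiponectin, had 2.27, 8.68, 13.3 and 5.59 CPM in corpus and 3.5, 0.819, 0.149 and 0.27 CPM in cauda, a wide spread within each segment. Red blood cell genes were higher in corpus in 5 of 7 (4 with a replicate block or library size scaling, and between 3 and 6 without any 1 library), with Alas2, the erythroid enzyme of heme synthesis, at 16 ± 1.67 against 2.73 ± 0.662 CPM and Hba-a1 at 14 ± 2.73 against 6.87 ± 0.82 CPM. Scaled over 28 libraries, Alas2 was at 1.93, 17.7, 3.03 and 8.43 CPM in caput, corpus, cauda and vas deferens. Whether its corpus level came from red blood cells was not tested. Slc4a1, the anion exchanger of red blood cells, had 14 counts in corpus and 0 in cauda with overlapping libraries. It was not called with a replicate block (adjusted p = 0.0581) or without corpus replicate 2 or 4 or cauda replicate 1, 2 or 4 (between 0.0595 and 0.0868). B and plasma cell genes were higher in corpus in 3 of 16, with Ighm at 26.8 ± 11.1 against 12.8 ± 4.81 CPM (adjusted p = 0.0237, and between 0.0555 and 0.0608 without corpus replicate 4, cauda replicate 2 or cauda replicate 4). T and NK cell genes gave 1 of 20 in each direction, beside 6.45% of all genes tested higher in corpus and 7.13% in cauda. The median log2 fold change of that list was -0.71, and 0.125 without cauda replicate 3. Its member Cd5 was higher in corpus at 3.8 ± 0.675 against 0.79 ± 0.445 CPM. Without corpus replicate 2 the B cell count was 2 in corpus and 1 in cauda, and without corpus replicate 4 it was 1 in corpus. Nerve and Schwann cell genes gave 3 of 12 higher in cauda, but 1 without corpus replicate 2, 1 with a replicate block and 2 without cauda replicate 3 or corpus replicate 4. Endothelial genes gave none of 15 (1 higher in corpus without cauda replicate 3), and mesothelial genes gave 1 of 9, the keratin Krt19 described above. Some small counts of the lists described earlier also changed: without cauda replicate 3, 1 lipocalin and 2 nutrient carriers were higher in corpus and 1 CRISP gene in cauda, and without corpus replicate 4, 3 nutrient carriers were higher in corpus and 1 CRISP gene in cauda.

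Placed along the whole tract at 3 months, with CPM scaled over the 28 libraries of that age, the genes were sorted by the region of their highest mean. Of the 1652 genes higher in corpus, 912 (55.2%) had their highest mean in corpus among the 7 regions. Of the 1827 genes higher in cauda, 517 (28.3%) had their highest mean in cauda and 540 (29.6%) in vas deferens, and 1148 (62.8%) were also higher in caput than in corpus. These shares describe means of 4 libraries, and the difference between them was not tested. Defb22 had 15.2 ± 25.9 CPM in caput, 1272 ± 214 CPM in corpus and no counts in vas deferens. Of 666 corpus-higher genes of at least 10 CPM, 130 (19.5%) were at least 4 times above both caput and cauda, among them Npy, neuropeptide Y, at 11.3, 1041 ± 205 and 77.5 CPM in caput, corpus and cauda, and Cyp17a1, the steroid 17-alpha-hydroxylase, at 11.5, 232 ± 13.1 and 5.22 CPM. Conversely, of 744 cauda-higher genes of at least 10 CPM, 46 (6.18%) had a dip in corpus, at 0.25 times or less of both neighbours. Clu was at 16550 ± 1825, 202 ± 42.1 and 2748 ± 1290 CPM in caput, corpus and cauda, D730048I06Rik at 408, 2.13 and 188 CPM, and Cryba4 at 56.1 ± 14.3, 0.284 ± 0.144 and 54.2 ± 19.3 CPM. Npy and Cyp17a1 were named after their values were seen.

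**Figure D4:**
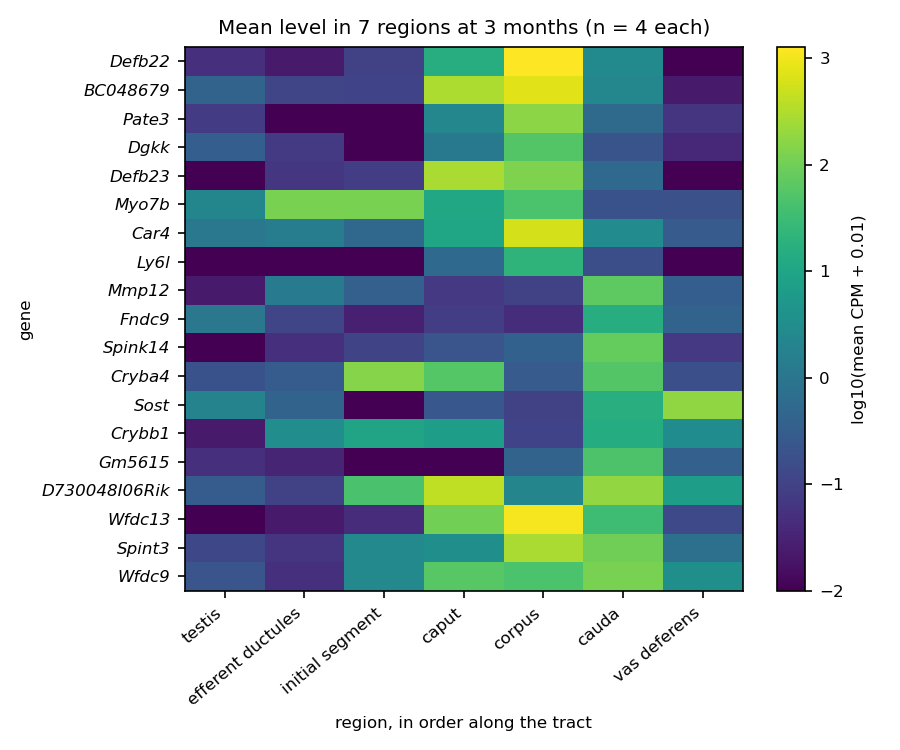
Mean level (log10(mean CPM + 0.01), colour) of the 16 genes of highest fold and of Wfdc13, Spint3 and Wfdc9 in 7 regions of the tract at 3 months, 4 libraries each, scaled over 28 libraries. Defb22, Pate3, Car4 and Wfdc13 are highest in corpus, and Cryba4 and D730048I06Rik are high in caput, low in corpus and high again in cauda.

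The same comparison in the 21-month-old mice gave 4248 genes of 25555 tested (16.6%), 1968 higher in corpus (7.7%) and 2280 in cauda (8.92%). Cauda replicate 2 of 21 months stood apart, with correlations of 0.967 to 0.973 with the other cauda libraries of that age and 5.98% mitochondrial counts, against 1.96% to 2.72% in the others. Without it 2024 genes were higher in corpus and 1917 in cauda. Of the genes called higher in corpus at 3 months and tested at 21 months, 1597 of 1619 (98.6%) had the same direction and 1225 (75.7%) were called again. For genes higher in cauda these were 1763 of 1795 (98.2%) and 1168 (65.1%). Without cauda replicate 2 of 21 months, 80.3% and 65% of those tested were called again. A single gene, Lyg2, was called in opposite directions at the 2 ages (2 genes with DESeq2), with 1.9 ± 0.786 and 0.738 ± 0.139 CPM in corpus and cauda at 3 months and 0.987 ± 0.169 and 3.07 ± 0.417 CPM at 21 months. Mmp12 and Spp1, highest in cauda replicate 3 at 3 months, had log2 fold changes of 0.75 and 0.04 at 21 months.

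**Figure D5:**
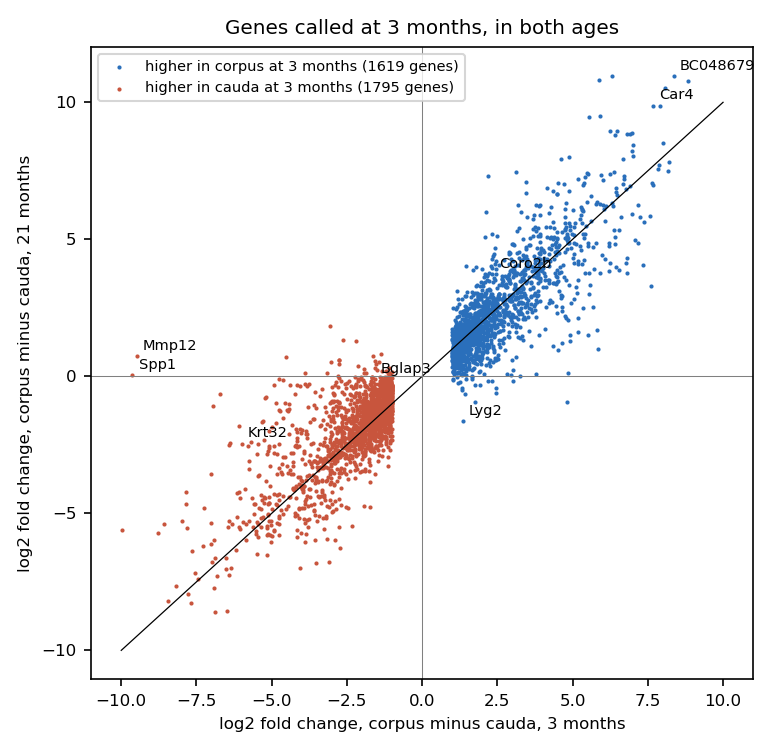
Log2 fold change, corpus minus cauda, at 3 months (horizontal axis) and 21 months (vertical axis) for the genes called at 3 months and tested at both ages, 1619 higher in corpus and 1795 higher in cauda, with the line of equality. Most points keep their sign, Lyg2, the gene called in opposite directions, lies in another quadrant, and Mmp12 and Spp1 lie at 0.75 and 0.04 at 21 months.

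The size of the corpus-cauda difference itself changed with age for 31 of 28048 genes at an adjusted p under 0.05 (0.111%; interaction term, edgeR). The count was between 9 and 66 when single libraries were left out, with 66 without cauda replicate 3 of 3 months and 9 without corpus replicate 4 of 3 months, and it was 41 without cauda replicate 2 of 21 months, 48 with a replicate block and 198 with DESeq2. BC048679 had the smallest p, its cauda level being 2.11 ± 0.786 CPM at 3 months and 0.289 ± 0.0955 CPM at 21 months while corpus stood at 695 ± 111 and 591 ± 81.9 CPM (difference of log2 fold changes 2.60 ± 0.36, adjusted p = 0.0118). Without cauda replicate 1 of 3 months, its highest cauda library at that age, this difference was 2.30 (adjusted p = 0.0143). Coro2b, an actin-binding coronin, was 21 ± 4.58 and 9.04 ± 1.63 CPM in cauda at 3 and 21 months, with corpus at 106 ± 11.4 and 120 ± 5.84 CPM (difference 1.41 ± 0.21, adjusted p = 0.0118). Bglap3, an osteocalcin-related gene, went from 16.8 ± 2.83 to 49.1 ± 7.85 CPM in corpus and stayed near 50.1 and 52.7 CPM in cauda (difference 1.48 ± 0.22, adjusted p = 0.0118). Interferon-stimulated genes gave 2 of 28 higher in cauda at 3 months, beside 7.13% of all genes tested, and between 1 and 7 without any 1 library and 11 with library size scaling. At 21 months they gave 25 of 28, beside 8.92%, and between 22 and 26 without any 1 library. Their median log2 fold change was -0.81 at 3 months and -1.94 at 21 months, and the change with age was not tested for the list.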

How the data were processed

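RNA-seq of corpus and cauda epididymidis was analysed from the table of whole-number read counts per gene that the authors deposited. Per the study's methods, total RNA libraries (TruSeq Stranded) were sequenced as paired 150-base reads and aligned to GRCm38. The submitters' processing notes list cutadapt, HISAT2 and HTSeq, and strand and multi-mapping settings are not given in the sources used here, so antisense and overlapping genes are uncertain. Gene symbols and positions came from GENCODE M21 on GRCm38.

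Genes with at least 10 counts over the 8 libraries were tested with edgeR 4.0.16 in R 4.3.3 (TMM, quasi-likelihood F-test, Benjamini-Hochberg). A gene was called at an adjusted p under 0.05 and at least 2-fold. Standard errors are the log2 fold change divided by the root of F. DESeq2 1.42.0, other scalings and filters, a replicate block and leaving out libraries were alternatives, and the procedure was tested on simulated data. Levels along the tract used scaling over 28 libraries and so differ slightly from those of the 8. Same-numbered corpus and cauda libraries deviated together at 3 months (correlations between 0.13 and 0.23, other pairs between -0.2 and 0.09). At 21 months the ranges overlapped, at 0.066 to 0.26 for same-numbered pairs and -0.28 to 0.18 for other pairs. The study took the regions from the same 4 mice of each age, but the labels do not state that a number marks a mouse. The main test did not pair corpus with cauda, and the replicate block paired them by number. As no label names the mouse, p-values measure the spread between libraries only. The members and gene lists were chosen with earlier results of these data known.

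Named genes were the 8 protein-coding genes of highest fold in each direction (at least 10 CPM, no overlap), the 5 with the highest CPM per kilobase in each direction, Wfdc13, Spint3 and Wfdc9, up to 3 called members of each list in each direction with further members by value, and the 3 with the most significant age interaction. Intervals and floors (3 counts) cover counting error only. A few list members that were tested and counted are not reported here by name.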

Additional observations from a re-analysis of the deposited data

Results flagged for a closer look

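Each of the following was a level of a named gene in 1 of 4 libraries far from the others of its segment at 3 months (Dixon's test at its 95% critical value). It was met by 11 of 68 groups of 4. Chance flags about 1 in 20 groups of genes not chosen for their values, but these genes were named for a large difference or, for Spp1 and Gpnmb, after their values were seen, so the tally tests nothing. Where the other 3 libraries are at 0, as for Fndc9 and Sost, any count is flagged by this test. In corpus replicate 2, genes of the cauda were higher than in the other corpus libraries: Fndc9 at 0.133 CPM (next 0), Spink14 at 1.13 CPM (next 0.143), Sost at 0.331 CPM (next 0), Gm5615 at 1.46 CPM (next 0.0498) and D730048I06Rik at 4.24 CPM (next 1.31). In cauda replicate 3, Mmp12 was at 245 CPM (next 0.546), Gpnmb at 4130 CPM (next 464) and Spp1 at 770 CPM (next 1.19). Defb22 was at 862 CPM in corpus replicate 3, where the next corpus library had 1214 CPM. BC048679 was at 3.29 CPM in cauda replicate 1 (next 1.79), and Wfdc13 at 19.4 CPM in cauda replicate 2 (next 32.1).

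The corpus-cauda difference changed between the ages, by the interaction term of the edgeR fit, for BC048679 (difference of log2 fold changes, 21 minus 3 months, 2.60), Car4 (2.22), Coro2b (1.41) and Bglap3 (1.48). For Car4 the corpus level was 543 ± 76.3 CPM at 3 months and 507 ± 36.1 CPM at 21 months, and the cauda level 2.65 ± 0.823 and 0.53 ± 0.365 CPM (adjusted p = 0.0237).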

How the results depend on the processing

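At 3 months the counts of genes higher in corpus and in cauda were within 1.5 times the reported 1652 and 1827 under DESeq2 (1623 and 1740), the replicate block (1564 and 1708), other filters and scalings, and without any 1 library (between 1516 and 1747, and between 1541 and 1771). They moved with the call rule, to 813 and 773 at 4-fold and to 3476 and 3321 with no minimum fold. At 21 months, library size scaling gave 4049 genes higher in cauda, and counts without any 1 library were between 1755 and 2024 and between 1882 and 2301. The count of genes whose difference changed with age was least stable, 31 as reported, 198 with DESeq2, 48 with the replicate block, and between 9 and 66 without any 1 library; the cause was not tested. For the named genes, 2452 of the alternatives tried kept the call, 139 lost it and 0 changed sign. The replicate block ended the calls of Serpina5 (adjusted p = 0.0684), Slc4a1 (0.0581) and Adam8 (0.0637), and took Ngfr under 2-fold, and it changed no other call of a gene named in the text. A total of 3 counts over 4 libraries corresponds to 0.0471 CPM in corpus and 0.0396 CPM in cauda, and differences near these levels were not detectable at this depth.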

Other observations

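Of 13 mitochondrially encoded protein genes, 9 were called higher in corpus at 3 months, beside 6.45% of all genes tested. The count was 5 without corpus replicate 4, which held 10.4% mitochondrial counts, between 8 and 9 without any other library, 8 with a replicate block and 7 with library size scaling. At 21 months 1 of the 13 was called higher in corpus, and 4 of 12 without cauda replicate 2 of that age. What part the share of mitochondrial counts in single libraries had in these counts was not tested.

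Among the 85 genes that were at least 10 times higher in cauda replicate 3 than in the other cauda libraries were genes of lysosomes and lipid handling, named after their values were seen. Lyz2, lysozyme, had 126, 108, 2076 and 112 CPM in the cauda libraries. Ctss, cathepsin S, had 35.6, 31.7, 1349 and 36.3 CPM. Plin2, which coats lipid droplets, had 6.79, 8.57, 321 and 7.33 CPM, and Cd36, a fatty acid receptor, had 19, 15.3, 316 and 10.5 CPM. At the same time this library was the lowest of the cauda in Clu, Serpine2 and Ano1, named in the comparison above.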
